A study of Mus musculus with 2 samples.

Results

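Described here are 10 genes of the amino acid and endoplasmic reticulum (ER) stress responses, Atf4, Asns, Trib3, Ddit3, Chac1, Ddit4, Sesn2, Psat1, Phgdh and Hspa5, out of 32245 gene symbols in the feature list. They were chosen by symbol and not by a cut on a measured value, but with earlier results of these data known. All 10 were present in both libraries. Levels were read in cell barcodes with at least 15000 unique molecular identifiers (UMIs, each marking 1 captured RNA molecule) and at most 10% mitochondrial UMIs, over cell states defined by marker genes and between a Zbtb16 knockout and a control library.

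When a cell lacks amino acids or accumulates unfolded protein in the ER, kinases phosphorylate the translation factor eIF2, general translation slows, and the transcription factor ATF4 is made. ATF4 raises genes for amino acid synthesis and transport, tRNA charging and, under lasting stress, the factor DDIT3 (CHOP). Separate branches of the unfolded protein response, through ATF6 and XBP1, raise ER chaperones such as HSPA5 (BiP). ATF4 and these sensors are controlled to a large extent after transcription, which RNA counts do not measure.

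The study took the mouse embryonic stem cell line D3 through cardiomyocyte differentiation to day 6 and asked which cell subpopulation depends on Zbtb16, a gene for a zinc finger transcription factor, at the progenitor stage. The groups were D3 cells with the genotype Zbtb16 knockout and D3 control cells labelled WT, both under the same differentiation treatment and both on day 6. The deleted sequence, the number of knockout clones and the number of cultures are not given in the sources used here. Each group was 1 droplet library, so replicate spread is unknown and no difference below could be tested. All intervals are exact 95% intervals for counting error alone.

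The filters kept 9449 cells of the knockout library and 6354 of the control library, at 30513 and 37324 UMIs for the median cell. The median mitochondrial share was 5.02% in knockout cells and 4.22% in control cells. Of the kept barcode sequences, 16 occurred in both libraries. Zbtb16 itself was read at 0.994 CPM (341 UMIs) in the knockout library and at 22.2 CPM (6507 UMIs) in the control library, where CPM is the gene's share of all UMIs on a scale common to both libraries. Cells past a cut on cardiomyocyte markers numbered 46 in the knockout library and 1888 in the control library, and cells with at least 5 of 8 pluripotency markers 178 and 19. In sums over all cells, a difference in cell makeup and a difference in RNA per cell cannot be told apart.

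The proximal promoters of Hspa5, Asns and Chac1 are shown because they hold a letter match to the best known element of either branch of the response. The ER stress response element was searched as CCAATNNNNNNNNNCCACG and the C/EBP-ATF response element, bound by ATF4 dimers, as TGATGNAA, each on both strands in the 250 bases before the RefSeq start (assembly GRCm38.p6, while the deposited counts name GRCm39 and mm39). Matches are in capitals, and each sequence reads along its gene's own strand.
Hspa5, chr2:34771840-34772089, plus strand: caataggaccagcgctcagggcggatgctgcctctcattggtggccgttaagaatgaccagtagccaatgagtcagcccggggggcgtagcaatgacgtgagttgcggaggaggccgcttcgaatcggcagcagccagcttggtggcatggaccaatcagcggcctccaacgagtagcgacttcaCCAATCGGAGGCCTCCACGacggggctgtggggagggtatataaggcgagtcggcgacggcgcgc
Asns, chr6:7693210-7693459, minus strand: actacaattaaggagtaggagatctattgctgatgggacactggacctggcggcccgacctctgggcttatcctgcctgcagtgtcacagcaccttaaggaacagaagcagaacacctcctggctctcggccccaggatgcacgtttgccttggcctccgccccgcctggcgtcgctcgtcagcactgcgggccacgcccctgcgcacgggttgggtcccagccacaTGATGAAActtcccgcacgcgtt
Chac1, chr2:119350992-119351241, plus strand: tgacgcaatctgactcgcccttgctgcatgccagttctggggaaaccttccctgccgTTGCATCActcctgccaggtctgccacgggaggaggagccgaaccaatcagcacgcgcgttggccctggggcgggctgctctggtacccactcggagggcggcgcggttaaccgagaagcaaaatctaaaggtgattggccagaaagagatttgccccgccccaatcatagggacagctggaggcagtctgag
The Hspa5 match lay at positions -65 to -47 from the start, the Asns match at -23 to -16, and the Chac1 match at -193 to -186 on the other strand. The ER stress element was found in 1 of the 10 genes and in 0.113% of 32851 promoter windows, and the C/EBP-ATF element in 2 of the 10 and in 3.45% of windows. The ER element contains a CCAAT box, which alone occurred in 33.8% of windows. A match describes letters in this window, and the windows of the other 7 genes held neither motif.

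Between the libraries the 10 genes did not move as a block. Hspa5, the main ER chaperone, was 2.01-fold higher in knockout cells than in control cells. Phgdh, the enzyme of the first step of serine synthesis, was lower in knockout cells, at 0.542 of the control level. The other 8 genes differed by less than 1.5-fold. With a prior of 1 CPM added to both values, 3 of the 10 log2 ratios (knockout over control) were above 0 and 7 below. In 8 of the 10 genes the level reached 5 CPM in 1 library or more. Of these, Hspa5 alone was higher by 1.5-fold or more and Phgdh alone lower, and their median log2 ratio was -0.19. Over all 10289 genes at that level, 12.7% were higher and 6.75% lower by that size, with a median of 0.02, so the number of the 10 genes past it is near the background. Trib3 and Chac1 were below 5 CPM in both libraries, and Ddit3 reached it only in the control.

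**Figure D1:**
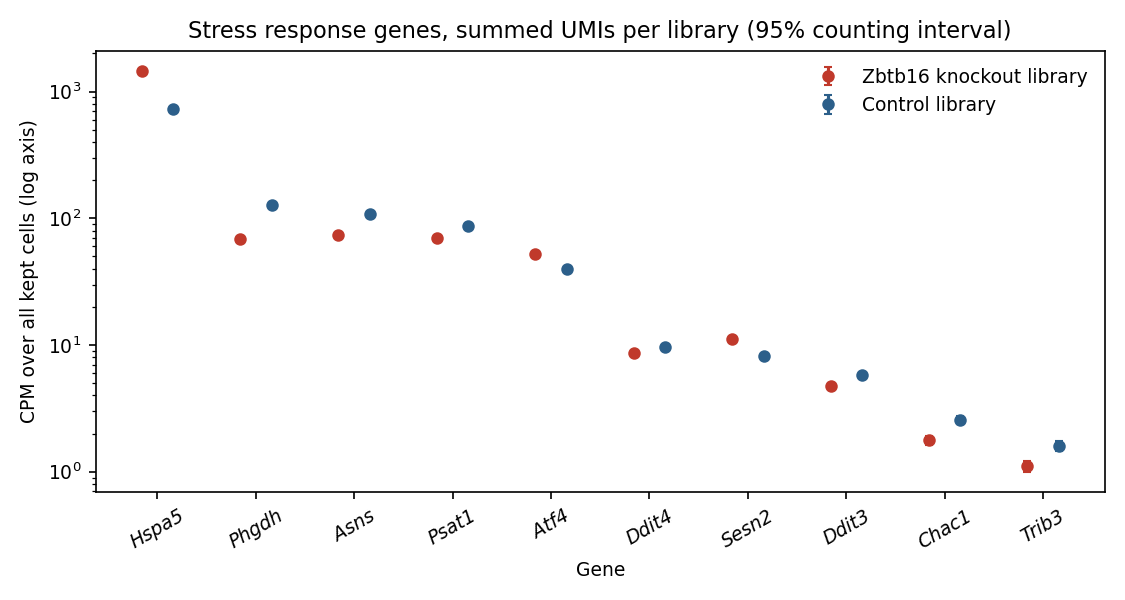
CPM of the 10 genes over all kept cells, on a log axis, in the knockout (red) and control (blue) libraries, with exact 95% counting intervals that are mostly smaller than the points. Hspa5 stands at 1453.6 CPM in the knockout library and 722.5 CPM in the control library, and Phgdh at 68.4 and 126.2 CPM.

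Hspa5 encodes BiP, the Hsp70 chaperone of the ER lumen, which binds unfolded chains and holds the stress sensors inactive. Its level was 1453.6 CPM in knockout cells (interval 1449.6 to 1457.6, from 498639 UMIs) and 722.5 CPM in control cells (719.4 to 725.6, from 211366 UMIs). The ratio of 2.01 had a counting interval of 2.002 to 2.022, which does not hold the variation between cultures. The difference was spread over cells. With every cell thinned to 15000 UMIs, the median cell held 20 Hspa5 UMIs in the knockout library and 10 in the control library, and the middle 90% of cells ran between 6 and 46 UMIs in the knockout and between 3 and 22 in the control. Of knockout cells, 84.0% lay above the control median, while 8.06% of control cells lay above the knockout median. The highest cell had 177 UMIs in the knockout and 51 in the control, and the variance over the mean was 7.29 in knockout and 3.54 in control cells, so the knockout distribution was wider as well as higher.

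**Figure D2:**
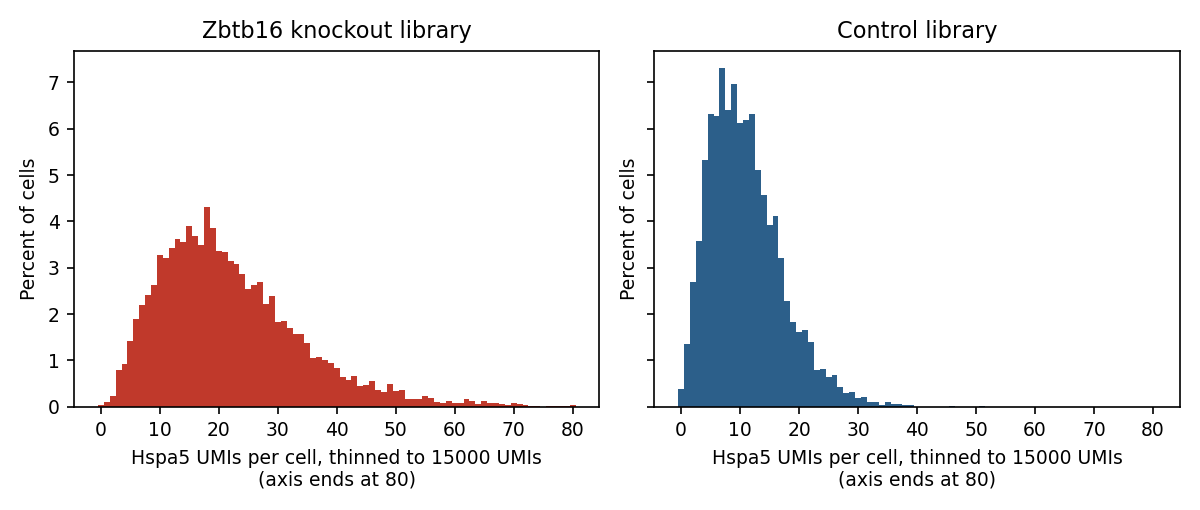
Percent of cells by number of Hspa5 UMIs per cell after thinning to 15000 UMIs, in the knockout library (left, 9449 cells) and the control library (right, 6354 cells); the axis ends at 80 UMIs. The knockout distribution is centred on a median of 20 UMIs and the control on 10, with a longer upper tail in the knockout.

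Cells were then placed in states by marker lists, in a fixed order, to compare cells of like identity. Of 9 gates, 5 held at least 50 cells in both libraries, with 390 knockout and 267 control cells in the endothelial gate, 187 and 102 in the endoderm gate, 473 and 280 in the epicardial gate, 3414 and 688 in the mesenchymal gate, and 152 and 1302 past the cut on the cardiac progenitor list. The remaining 4390 knockout and 1803 control cells passed no gate. Own markers led the endothelial, endoderm and mesenchymal gates in both libraries. The control epicardial gate had 4 mesenchymal beside 4 epicardial markers among its top 10 genes. Among the top 10 genes past the progenitor cut were 2 progenitor and 2 cardiomyocyte markers in the knockout and 1 progenitor and 1 mesenchymal marker in the control, so that gate is a range of a score and not a cell type. Cells within 20% of the cut numbered 1509 knockout and 442 control cells for the mesenchymal gate, and 206 and 371 for the progenitor cut.

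Hspa5 was at least 1.5-fold higher in knockout cells in all 6 of these sets of cells, counting the ungated cells as 1. Knockout against control levels were 1565 against 777 CPM in mesenchymal-gated cells, 1511 against 796 CPM in epicardial-gated cells and 1454 against 734 CPM in ungated cells. Past the progenitor cut they were 1332 CPM in knockout and 672 CPM in control cells. The ratios in these 4 sets ran between 1.90 and 2.02. The ratio was smaller in endothelial-gated cells, at 1.59 (1.56 to 1.62) with 1248 CPM in the knockout and 785 CPM in the control, and in endoderm-gated cells, at 1.59 (1.55 to 1.64) with 1366 and 857 CPM, a contrast between gates that was not tested. Genes higher by that size made up between 11% (endothelial) and 14% (endoderm) of genes tested in the gates, with 11.4%, 12.4%, 12.4% and 12% in the mesenchymal, epicardial, progenitor-cut and ungated cells. Smaller sets had the same direction, with 717 CPM in 178 knockout and 350 CPM in 19 control pluripotent-gated cells, and 1556 CPM in 46 knockout and 692 CPM in 1888 control cardiomyocyte-gated cells. A stricter endoderm gate put the log2 ratio there at 0.579, just under the 1.5-fold line at 0.585.

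Genes that varied with Hspa5 from cell to cell were other ER folding genes. Among 5617 genes that reached 20 CPM in each library, the 8 whose lower within-library correlation with Hspa5 was highest were all on the list of ER chaperones and unfolded protein response genes. Hsp90b1, the ER Hsp90, came first with a Pearson r of 0.566 over knockout cells and 0.506 over control cells. Calr, a lectin chaperone, had 0.466 and 0.472, and Manf, a secreted ER stress factor, 0.539 and 0.452. Pdia6, Pdia3 and Pdia4, disulfide isomerases, followed with r between 0.357 and 0.457 in the knockout and between 0.246 and 0.427 in the control. Xbp1, the transcription factor, and Sdf2l1, an HSPA5 cofactor, closed the list at 0.251 and 0.284 in the knockout and 0.236 and 0.230 in the control. These values are descriptions over cells of 1 library each, and the cells share their library and total.

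Of the genes on the ER list, some differed between libraries by 1.5-fold and others did not. Of 21 ER list genes, all above 5 CPM, 6 passed 1.5-fold upward in the knockout, none passed it downward, and the median log2 ratio was 0.23, against 12.7% of all genes higher, 6.75% lower and a median of 0.02. The 6 were Pdia3 at 765 CPM in the knockout and 353 CPM in the control, Hsp90b1 at 1467 and 780 CPM, P4hb (a disulfide isomerase) at 374 and 223 CPM, Hyou1 (a large ER chaperone) at 55.2 and 33.9 CPM, Pdia4 at 169 and 108 CPM, and Sel1l (an ER degradation adaptor) at 50.01 and 31.3 CPM. Manf was at 384 CPM in the knockout and 370 CPM in the control, and Xbp1 at 59.6 and 60.2 CPM. Creld2, induced by ER stress, was at 55.3 and 59.0 CPM, Dnajb9, an HSPA5 co-chaperone, at 21.7 and 21.0 CPM, and Herpud1, an ER degradation component, at 13.7 and 19.5 CPM. These 5 differed by less than 1.5-fold, with log2 ratios between -0.48 and 0.05. Transcript lengths are given beside the ratios, and their part in this split was not tested. The 4 list genes with the shortest transcripts, Sec61b, Sdf2l1, Selenos and Creld2 (723 to 1366 bases), had log2 ratios between -0.25 and 0.01. Of the 6 longest (4080 to 6300 bases), Hyou1 was at 0.69 and Sel1l at 0.66. Canx at 0.58 and Edem1 at 0.57 were just under the 1.5-fold line at 0.585. Dnajc3 was at 0.36 and Syvn1 at 0.04. Pdia3, with 2770 bases, was at 1.11 and Hsp90b1, with 3222, at 0.91. After a length and GC correction 4 of the 21 stayed past 1.5-fold, Pdia3 at 1.13, P4hb at 0.85, Hsp90b1 at 0.85 and Pdia4 at 0.71 (log2), and Hspa5 was at 0.93. Over all genes, 868 of 10286 were higher by that size after this correction. Hyou1 was then at 0.55, Canx at 0.41, Sel1l at 0.36 and Edem1 at 0.27, and the 4 shortest lay between 0.07 and 0.25. Within the 6 sets of cells, 2 of the 21 genes were higher by that size in endothelial-gated and 2 in endoderm-gated cells. Both counts are near the shares of all genes there (11% and 14%). The number was 5 in epicardial-gated, 6 in mesenchymal-gated and 6 in ungated cells and 7 past the progenitor cut. These lay above shares of 12.4%, 11.4%, 12% and 12.4%, and at most 1 gene was lower in any set.

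The ER stress element was found before the start of 7 of 19 list genes with a promoter in the RefSeq table, besides Hspa5. Its letters are shown, with the conserved ends in capitals, to set each match beside how its gene differed.
Hspa5, chr2:34772025-34772043: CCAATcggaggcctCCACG
Hsp90b1, chr10:86705638-86705656: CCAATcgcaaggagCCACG
Hsp90b1, chr10:86705533-86705551: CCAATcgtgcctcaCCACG
Canx, chr11:50325800-50325818: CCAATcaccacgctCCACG
Pdia6, chr12:17266491-17266509: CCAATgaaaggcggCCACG
Dnajc3, chr14:118937827-118937845: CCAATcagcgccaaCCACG
Calr, chr8:84847075-84847093: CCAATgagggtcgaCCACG
Syvn1, chr19:6046532-6046550: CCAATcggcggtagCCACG
Creld2, chr15:88819520-88819538: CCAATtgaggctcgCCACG
Each is written from CCAAT to CCACG; the second Hsp90b1 match and those of Calr and Creld2 lie on the strand opposite to the gene. The log2 ratios of these genes were 1.01 for Hspa5, 0.91 for Hsp90b1, 0.58 for Canx (a lectin chaperone), 0.41 for Pdia6, 0.36 for Dnajc3 (an HSPA5 co-chaperone), 0.23 for Calr, 0.04 for Syvn1 (the ER ubiquitin ligase) and -0.09 for Creld2. Genes with the letters therefore ran the whole way between no difference and 2.01-fold. Pdia3, with the largest log2 ratio of the list, 1.11, had no match in its window.

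Phgdh, Psat1 and Asns make serine and asparagine, and all 3 were lower in the knockout library over all cells. Phgdh oxidises a glycolytic intermediate at the entry of serine synthesis. It stood at 68.4 CPM in the knockout (67.6 to 69.3) and 126.2 CPM in the control (124.9 to 127.5), a log2 ratio of -0.87. Psat1, the aminotransferase of the next step, stood at 70.2 and 87.6 CPM, a log2 ratio of -0.32, and Asns, asparagine synthetase, at 74.3 and 107 CPM, a log2 ratio of -0.53. In cells thinned to 15000 UMIs, a Phgdh UMI was found in 55.8% of knockout cells and 77.7% of control cells. For Asns the shares were 58.1% of knockout and 72.1% of control cells, and for Psat1 50.6% and 63.0%. Without thinning they were 76.9% and 92.4% for Phgdh, 79.4% and 90.4% for Asns and 71.0% and 85.8% for Psat1. No cell type here is known to lack these transcripts, so no background share could be read; in barcodes with 10 to 100 UMIs, which hold mostly free RNA, Phgdh was at 63.0 CPM in the knockout and 99.9 CPM in the control.

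The ratios of the serine and asparagine genes varied more over the 6 sets than that of Hspa5, with log2 ratios between -1.19 and 0.12 for Phgdh, -0.92 and 0.19 for Asns and -0.84 and 0.68 for Psat1, and between 0.67 and 1.01 for Hspa5. Phgdh was at least 1.5-fold lower in knockout cells in 4 of the 6 sets, at 53.3 against 101 CPM in mesenchymal-gated cells, 61.5 against 113 CPM in epicardial-gated cells, 60.5 against 139 CPM past the progenitor cut and 67.7 against 134 CPM in ungated cells. In endothelial-gated cells it was 94.1 CPM in the knockout and 86.5 CPM in the control. Asns was lower by that size in 3 sets, with 60.8 against 116 CPM in mesenchymal-gated cells, 56.9 against 104 CPM in epicardial-gated cells and 71.0 against 120 CPM in ungated cells, while in endothelial-gated cells it was 109 CPM in the knockout and 95.1 CPM in the control. Psat1 had opposite directions, at 42.4 against 76.8 CPM in mesenchymal-gated and 46.2 against 81.5 CPM in epicardial-gated cells, but at 181 CPM in knockout and 112 CPM in control endothelial-gated cells. Genes lower by 1.5-fold made up 3.7% of those tested in the mesenchymal gate, 5.2% in the epicardial gate, 6.4% past the progenitor cut, 5.23% in ungated, 5.95% in endothelial-gated and 7.21% in endoderm-gated cells.

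**Figure D3:**
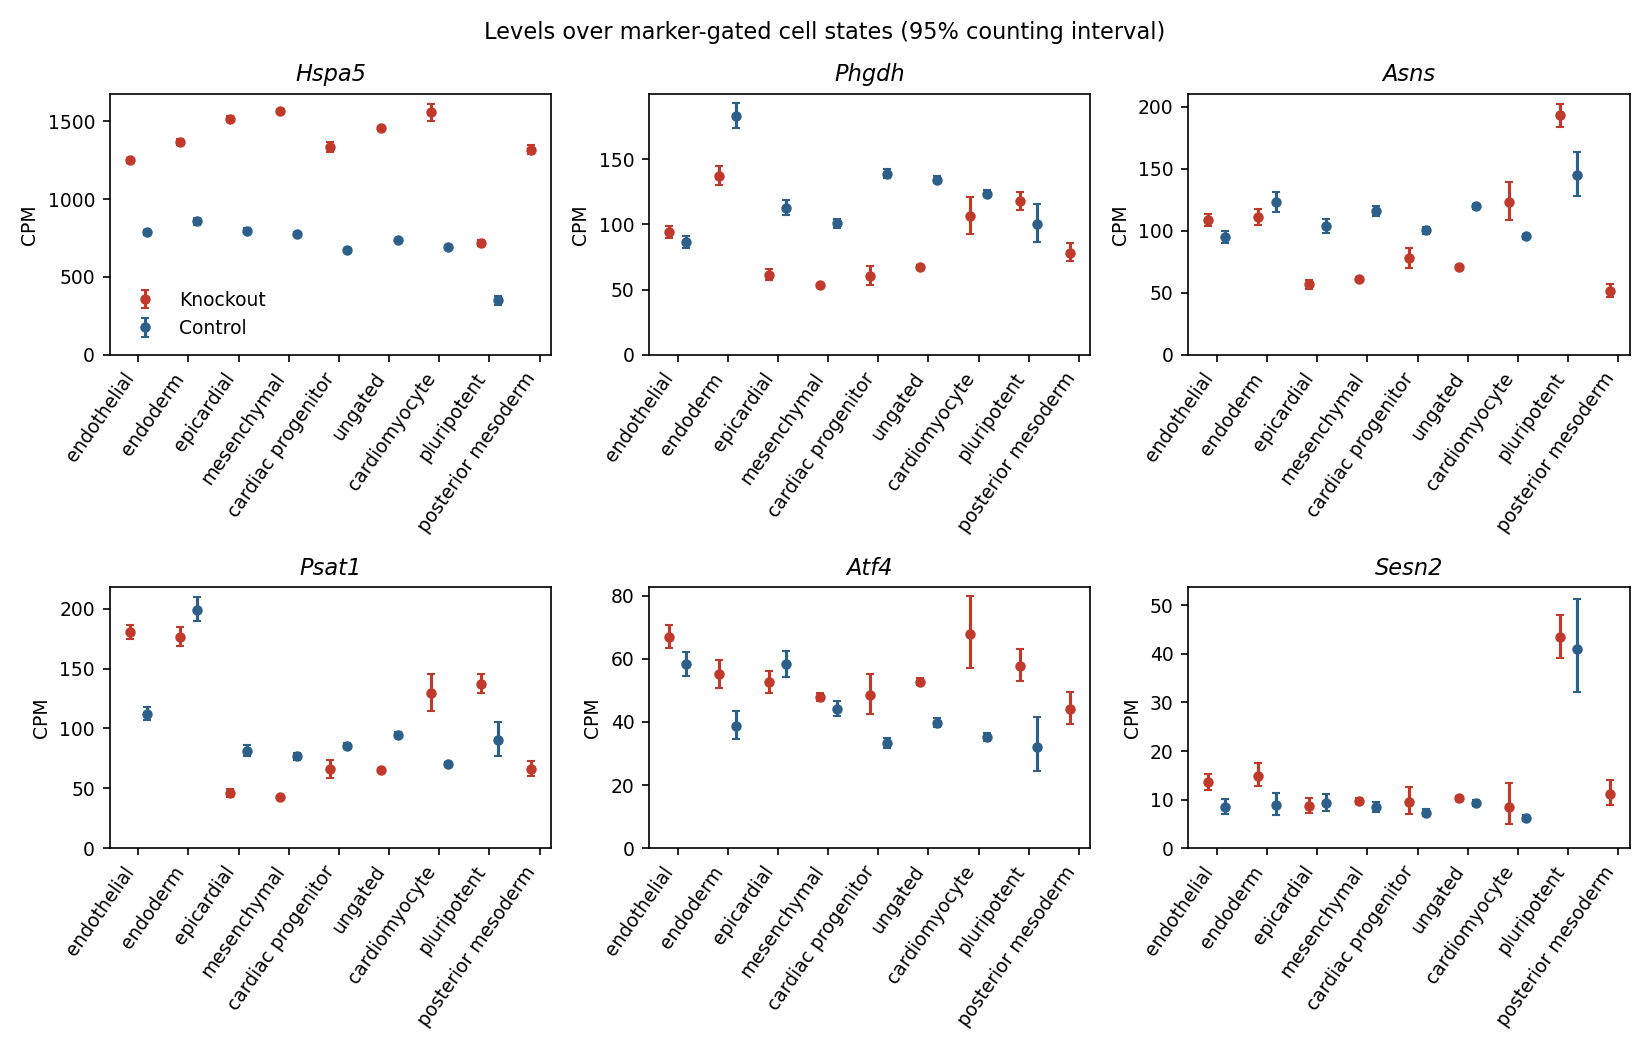
CPM of 6 genes in each gated state with at least 10 cells, except the 28 erythroid-gated knockout cells; knockout in red, control in blue, bars are exact 95% counting intervals and each panel has its own axis. Hspa5 is higher in knockout cells in every state drawn for both libraries, while Psat1 is higher in knockout endothelial-gated cells, at 181 against 112 CPM, and lower in knockout mesenchymal-gated cells, at 42.4 against 76.8 CPM.

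Within the knockout library the order of states separated the genes too. Over the 8 states with at least 50 knockout cells, Psat1 was lowest in mesenchymal-gated (42.4 CPM) and highest in endothelial-gated cells (181 CPM), with endoderm-gated cells at 176 CPM; the intervals of the last pair, 175 to 187 and 169 to 185 CPM, overlap. Asns was lowest in posterior mesoderm-gated cells (51.6 CPM) and highest in pluripotent-gated cells (193 CPM), and Phgdh lowest in mesenchymal-gated (53.3 CPM) and highest in endoderm-gated cells (137 CPM). Hspa5 was lowest in pluripotent-gated cells, at 717 CPM, with all other states between 1248 and 1565 CPM. Over the 7 control states with at least 50 cells, Psat1 was lowest in cardiomyocyte-gated (70.2 CPM) and highest in endoderm-gated cells (199 CPM). Control Asns ran only between 95.1 CPM in endothelial-gated and 123 CPM in endoderm-gated cells, and control Hspa5 between 672 CPM past the progenitor cut and 857 CPM in endoderm-gated cells. The 28 erythroid-gated knockout cells stood at 336 CPM for Psat1, 241 CPM for Asns, 194 CPM for Phgdh and 137 CPM for Atf4, with Hspa5 at 733 CPM.

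Atf4, the transcription factor at the centre of the pathway, was at 52.3 CPM in the knockout (51.5 to 53.1) and 39.7 CPM in the control (38.9 to 40.4). Its log2 ratio was 0.39, opposite in sign to those of Asns, Psat1 and Phgdh, which are known ATF4 targets. In the 6 sets of cells its log2 ratio ran between -0.15 in epicardial-gated cells and 0.53 past the progenitor cut, short of 1.5-fold in each. Past the progenitor cut it went over that line with a looser gate (0.66), a minimum of 30000 UMIs (0.73) and a 5% mitochondrial limit (0.78), and in endoderm-gated cells with the 5% limit (0.97, 25 knockout cells). Thinned cells with an Atf4 UMI were 48.9% of knockout and 39.1% of control cells, and the free RNA level was 78.4 CPM in the knockout and 53.9 CPM in the control. Its length and GC corrected log2 ratio was 0.60, past the 1.5-fold line.

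The late and pro-apoptotic part of the response was sparse in both libraries. Ddit3, the factor CHOP, stood at 4.77 CPM in the knockout and 5.77 CPM in the control. Chac1, which degrades glutathione, stood at 1.76 CPM (605 UMIs) and 2.56 CPM (750 UMIs), and Trib3, a pseudokinase induced by ATF4 and CHOP, at 1.11 CPM (380 UMIs) and 1.60 CPM (467 UMIs). All 3 were lower in the knockout over all cells, with ratios of 0.828 (0.773 to 0.887) for Ddit3, 0.688 (0.617 to 0.767) for Chac1 and 0.694 (0.604 to 0.796) for Trib3. In thinned cells a Ddit3 UMI was found in 6.64% of knockout and 7.98% of control cells, a Chac1 UMI in 1.58% and 2.11%, and a Trib3 UMI in 1.40% and 2.23%. The widest gap lay in epicardial-gated cells, where Chac1 was at 1.26 CPM in the knockout (20 UMIs) and 6.78 CPM in the control (92 UMIs), and Ddit3 at 3.96 and 7.45 CPM. Past the progenitor cut the intervals of the ratios of Ddit3 (0.709 to 1.65), Chac1 (0.795 to 2.33) and Trib3 (0.728 to 2.85) all include 1, so a difference was not detectable there at this depth. A stricter cut, with 63 knockout cells, gave log2 ratios of -1.07 for Ddit3, -0.93 for Chac1 and -0.01 for Trib3, against 0.12, 0.37 and 0.39.

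Sesn2 and Ddit4, which both restrain the growth kinase complex mTORC1, split by cell state. Sesn2, a leucine sensor, was at 11.2 CPM in the knockout and 8.16 CPM in the control, a ratio of 1.37 (1.30 to 1.45). It was at least 1.5-fold higher in knockout endothelial-gated cells, at 13.6 against 8.48 CPM, and knockout endoderm-gated cells, at 14.9 against 8.88 CPM. Neither reached 1.5-fold with a prior of 5 CPM, at log2 ratios of 0.46 and 0.52, and with a 5% mitochondrial limit the endoderm log2 ratio was -0.00547 from 25 knockout cells. In both libraries it was high in pluripotent-gated cells, at 43.4 CPM in 178 knockout cells and 41.0 CPM in 19 control cells. Ddit4, also induced by low oxygen, was at 8.65 CPM in the knockout and 9.65 CPM in the control, with lower knockout values in 5 of 6 sets. In endothelial-gated cells it was higher in the knockout, at 10.8 CPM (212 UMIs) against 4.59 CPM (73 UMIs), a ratio of 2.35 (1.79 to 3.10).

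By state, the genes past 1.5-fold and their direction differed between the sets of cells. In endothelial-gated cells Hspa5, Psat1 and Sesn2, which reached 5 CPM in both libraries, were higher in the knockout by that size, where 11% of all genes at 5 CPM in either library were higher and 5.95% lower. Ddit4 was higher too, but reached 5 CPM only in the knockout, and Chac1, under 5 CPM in both, was lower, at a log2 ratio of -0.67. In epicardial-gated cells Hspa5 was higher and Phgdh, Asns and Psat1 were lower, all at 5 CPM or more in both libraries, where 12.4% of all genes were higher and 5.2% lower. Ddit3 and Chac1 were lower as well but reached 5 CPM only in the control, and Trib3 reached it in neither. The Ddit3 log2 ratio of -0.77 there was -0.57 with a looser gate and -0.47 with a prior of 5 CPM, both short of 1.5-fold. In mesenchymal-gated cells Hspa5 was higher and Phgdh, Asns and Psat1 lower, in ungated cells Hspa5 higher and Phgdh and Asns lower, past the progenitor cut Hspa5 higher and Phgdh lower, and in endoderm-gated cells Hspa5 and Sesn2 higher. A gene that reaches 5 CPM in only 1 library is measured through the library where it is high. For that reason no count of the 10 genes within a set of cells is given as a result. The difference between gates was not tested, and the mixed markers of the control epicardial gate apply to its values.

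**Figure D4:**
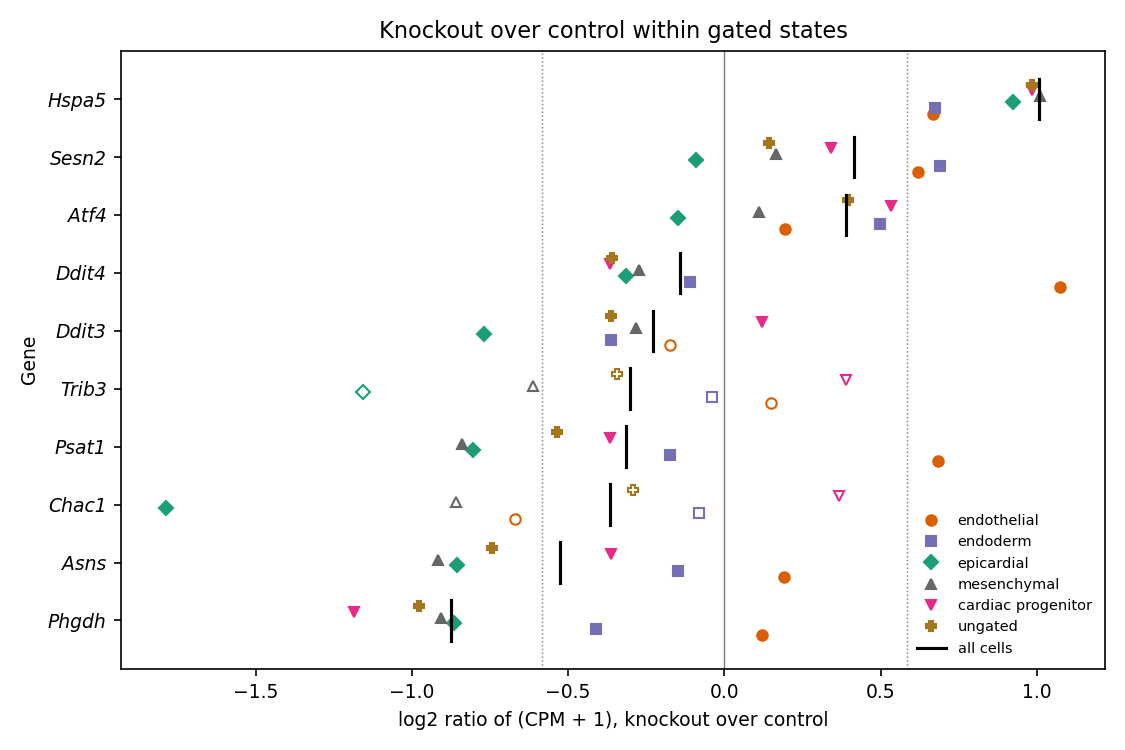
Log2 ratio of CPM plus 1, knockout over control, of the 10 genes within each of 6 sets of cells (symbols) and over all cells (black line); hollow symbols are genes under 5 CPM in both libraries of that set, and dotted lines mark 1.5-fold. Hspa5 lies right of the upper line in all 6 sets, and the endothelial symbols of Psat1, Asns, Phgdh and Ddit4 lie right of 0 while their epicardial symbols lie left of it.

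Other genes of the pathway, taken from fixed lists, gave no shared direction for ATF4 targets. Of 19 measured of 27 further ATF4 targets, 2 were at least 1.5-fold higher and 2 lower, with a median log2 ratio of 0.02, close to the 12.7% higher and 6.75% lower among all genes. Xpot, which exports tRNA, was at 50.2 CPM in the knockout and 27.1 CPM in the control, while Atf5, a stress-induced factor, was at 19.4 and 36.1 CPM. Eif4ebp1, a translation repressor, was at 215 and 163 CPM, Slc38a2, a neutral amino acid transporter, at 114 and 137 CPM, and Slc3a2, the heavy chain of several transporters, at 93.0 and 92.7 CPM. Over all cells, of 9 measured of 10 serine and one-carbon genes none passed 1.5-fold in either direction, with a median of 0.11. Within sets of cells this list's median was lower in several. It was -0.32 in epicardial-gated, -0.29 in mesenchymal-gated and -0.39 in ungated cells, and -0.29 past the progenitor cut. In endothelial-gated cells it was 0.17 and in endoderm-gated cells 0.08. Values of single genes that follow are over all cells. Psph, the last step of serine synthesis, was at 37.5 and 50.3 CPM, Mthfd2, a mitochondrial folate enzyme, at 26.5 and 37.8 CPM, Mthfd1l, also of mitochondrial folate, at 31.3 and 23.0 CPM, and Shmt1, a serine hydroxymethyltransferase, at 34.7 and 31.6 CPM.

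Of 11 tRNA synthetase genes, 2 were at least 1.5-fold higher and none lower, with a median of 0.20, beside 12.7% and 6.75% of all genes. Iars was at 65.7 CPM in the knockout and 37.2 CPM in the control, Tars at 99.995 and 63.8 CPM, Eprs at 326 and 233 CPM, Lars at 136 and 101 CPM and Gars at 112 and 103 CPM. Of 8 measured of 9 sensors and regulators of eIF2, 1 was higher, Ppp1r15b, which helps to dephosphorylate eIF2, at 36.8 and 21.5 CPM, a share near that 12.7%, with a list median of 0.43. Eif2s1, the eIF2 alpha subunit, was at 226.9 and 226.4 CPM, Impact, an inhibitor of the amino acid sensor GCN2, at 113 and 83.6 CPM, and Atf6 at 16.8 and 11.4 CPM.

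Values of other stresses are given because they share genes or triggers with the 10. Of 7 measured of 9 hypoxia targets, 5 passed 1.5-fold upward and none downward over all cells, with a median of 0.75. Among all genes 12.7% were higher and 6.75% lower. Of the 5, Egln3 and Pfkfb3 reached 5 CPM only in the knockout. With equal weight per gated state 3 of the 7 were higher, with a median of 0.55, where 1137 of 10304 genes were higher. Within the sets of cells the median of this list ran between 0.38 in endoderm-gated and 0.73 in ungated cells. Slc2a1, the glucose transporter GLUT1, was at 1589 CPM in the knockout and 614 CPM in the control, Ndrg1 at 51.7 and 14.3 CPM, and Bnip3, a mitophagy receptor, at 30.8 and 34.5 CPM. The log2 ratio of Slc2a1 was 1.37 over all cells, 0.37 in endoderm-gated cells, 0.49 in mesenchymal-gated cells and 1.08 past the progenitor cut. Of 8 p53 targets 1 was higher, a share near the background, with Ccng1 at 107 and 57.0 CPM and a list median of 0.32; Phlda3 was at 69.8 and 56.8 CPM, Sesn3 at 58.4 and 49.4 CPM, and Cdkn1a, a cell cycle inhibitor, at 35.1 and 24.1 CPM. Of 10 measured of 12 dissociation and heat shock genes 4 were lower and none higher, with a median of -0.34, where 6.75% of all genes were lower. With the length and GC correction 2 of the 10 were lower, with a median of -0.14, where 683 of 10286 genes were lower. By gate, the median of this list ran between -0.43 in endothelial-gated and 0.01 in endoderm-gated cells. Fosb, an immediate early gene, was at 17.98 and 51.3 CPM, Ier2 at 62.4 and 117 CPM, Jun at 126 and 117 CPM, Hspb1 at 94.6 and 103 CPM and Hsp90aa1 at 1427 and 1206 CPM. Their part in the differences of the 10 genes was not tested.

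**Figure D5:**
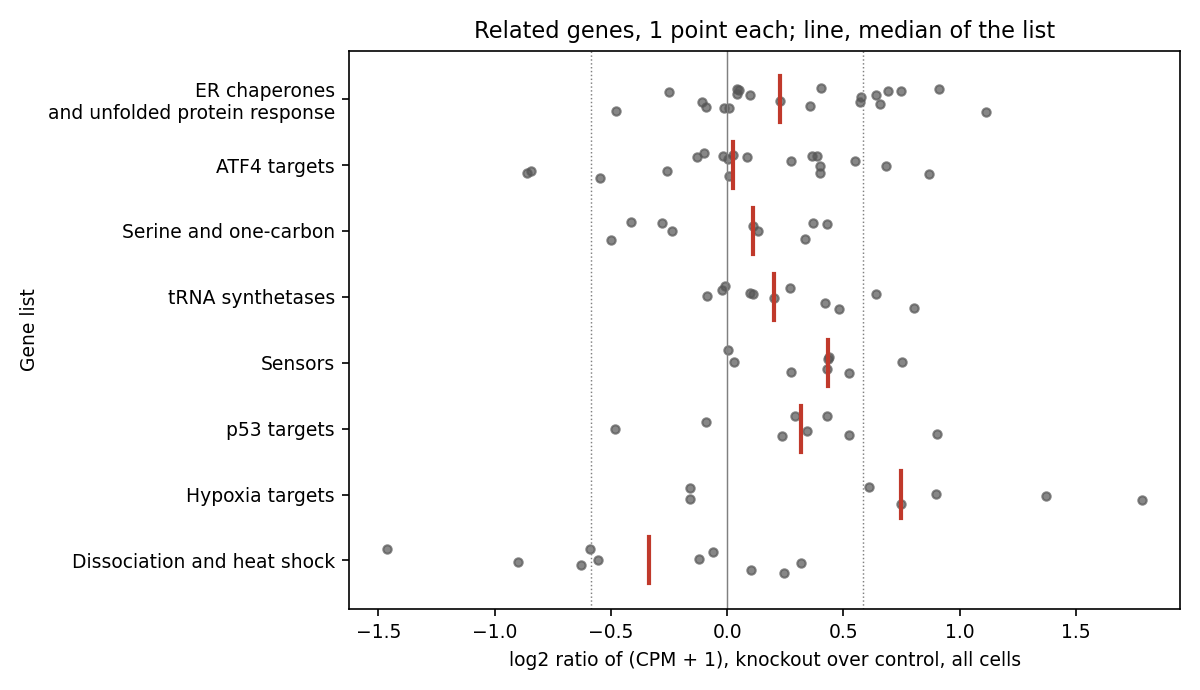
Log2 ratio of CPM plus 1, knockout over control over all cells, for each measured gene of 8 lists (points), with the list median (red line) and dotted lines at 1.5-fold. The medians run between -0.34 for dissociation and heat shock genes and 0.75 for hypoxia targets, with ATF4 targets at 0.02 and ER chaperone genes at 0.23.

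Among single cells thinned to 15000 UMIs the 10 genes were weakly correlated. Over the 45 pairs, Pearson r of log values ran between -0.05 and 0.222 in knockout cells and between -0.05 and 0.186 in control cells, and 6 pairs in each library exceeded 0.1. At these counts such values are weak. In the knockout the highest were Psat1 with Phgdh (0.222), Asns with Psat1 (0.219) and Trib3 with Chac1 (0.176). The control values of these pairs were 0.155, 0.159 and 0.173, and Atf4 with Chac1 was highest there (0.186). Without thinning the same 3 pairs were higher, at 0.340, 0.336 and 0.330 in the knockout and 0.275, 0.297 and 0.357 in the control. Cells with a Chac1 UMI after thinning, 149 in the knockout and 134 in the control, held Trib3 at 12.1 CPM in knockout and 11.4 CPM in control cells, against 0.810 and 1.35 CPM in cells without one. The ratio was 14.9 (9.42 to 22.9) in the knockout and 8.47 (5.18 to 13.3) in the control. Atf4 was 2.84 times as high in the Chac1-positive knockout cells and 3.30 times in the control ones, Sesn2 3.10 and 3.32 times, and Ddit3 2.61 and 3.48 times. Hspa5 differed little between the same cells. Its ratio was 0.949 (0.916 to 0.983) in the knockout, slightly lower in the Chac1-positive cells, and 0.999 (0.948 to 1.05) in the control. The synthesis genes were higher there by less, Psat1 2.10 times in the knockout and 1.31 times in the control, Phgdh 1.61 and 1.17 times and Asns 1.53 and 1.30 times, all with intervals above 1. Ddit4 was 1.70 times as high in the knockout, and 1.45 times in the control with an interval of 0.970 to 2.08. They were picked by a UMI of Chac1, and they are not replicates.

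The genes most like the mean of the amino acid group (Asns, Trib3, Chac1, Ddit3, Sesn2, Psat1 and Phgdh) were of other kinds. The ranking took 5613 genes that reached 20 CPM in each library, with the 10 genes left out. The 12 with the highest lower correlation were Ran, Hspd1, Hspe1, Eif5a, Npm1, Ybx3, Fdps, Hsp90aa1, Nme1, Dctpp1, Nop10 and Idi1. Their r ran between 0.183 and 0.3004 in knockout cells and between 0.188 and 0.274 in control cells. They include both mitochondrial chaperonin genes (Hspd1, Hspe1), the nuclear transport GTPase Ran, the nucleolar gene Npm1 and the sterol synthesis genes Fdps and Idi1. Fdps was at 134 CPM in the knockout and 385 CPM in the control, and Idi1 at 116 and 170 CPM. None of the 12 was on the list of further ATF4 targets. Most genes of that list were under 20 CPM in a library and so could not be ranked, and no likeness to ATF4 targets can be judged from this.

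Depth and mitochondrial share moved with some of the 10 genes inside a library. Psat1 was higher in cells with more UMIs, at 42.7, 61.7 and 86.9 CPM in knockout cells of 15000 to 25000, 25000 to 40000 and over 40000 UMIs, and at 51.5, 75.1 and 97.1 CPM in the same bins of the control. Hspa5 had no such order, at 1495, 1532 and 1377 CPM in the knockout and 691, 764 and 709 CPM in the control. Over mitochondrial shares under 4%, of 4% to 6% and above 6%, Hspa5 was at 1451, 1481 and 1312 CPM in knockout cells and at 731, 719 and 679 CPM in control cells, so it was higher in knockout cells within each bin. Phgdh was at 98.6, 64.7 and 60.2 CPM in the knockout and at 137, 120 and 98.9 CPM in the control over the same bins, lower in the knockout in each.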

How the data were processed

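Single-cell libraries were made from trypsin-released day 6 cells with a droplet kit (DNBelab C Series), per the labels' protocols. Deposited were unfiltered matrices of raw counts (UMIs of each gene in each barcode), written by Cell Ranger 4 per the file headers; the submitters' processing notes name Cell Ranger, R 4.1.1, GRCm39 and mm39. The step between a DNBelab library and Cell Ranger files is not described there. The libraries held 357324373 knockout and 308465930 control UMIs in 2775689 and 2934307 barcodes, with 32285 features. Feature and barcode lists served as names.

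UMIs were summed over kept cells of a library or gate and scaled to CPM with exact Poisson intervals; ratios of CPM carry exact conditional binomial intervals, and log2 ratios use a prior of 1 CPM. Shares come from cells thinned to 15000 UMIs without replacement. PCR and capture limits are not in these intervals. A 1.5-fold size (log2 0.585) stands in for a test, since 1 library per group allows none, and background shares count genes that reach 5 CPM in 1 library or more. Gates were applied in a fixed order, with markers counted in thinned cells and list CPM taken at full depth. First came at least 7 of 11 endothelial, 5 of 11 endoderm, 5 of 8 pluripotent and 4 of 6 erythroid markers. Then came 2000 CPM of the cardiomyocyte list and 4 of 9 posterior mesoderm markers. Last were 300, 1000 and 500 CPM of the epicardial, mesenchymal and cardiac progenitor lists. Each CPM cut also needed at least 3 markers seen. The cut values were set after the data were seen, and no doublets were removed; 387 knockout and 2005 control cells passed 2 or more gates. Ddit3 occurs under 2 feature identifiers, 1 of them with 0 UMIs in the kept cells, and both were summed. Lists name their 3 genes of highest mean CPM and 2 largest ratios; ER list members beyond these were named after their values were seen. The genes and lists were chosen with earlier results of these data known. Lengths and GC content came from GENCODE M21 for 99.97% of genes. Sums were tested on simulated counts. Tools were Python 3.11.15, numpy 2.4.6, scipy 1.17.1, pandas 2.3.3, statsmodels 0.14.6, matplotlib 3.10.9 and, for TMM scaling only, edgeR 4.0.16.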

Additional observations from a re-analysis of the deposited data

Results flagged for a closer look

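Psat1 was higher in knockout than in control endothelial-gated cells and lower in knockout than in control mesenchymal-gated cells. Its log2 ratio was 0.68 in the endothelial gate, with 181 CPM in the knockout and 112 CPM in the control, and -0.84 in the mesenchymal gate, with 42.4 and 76.8 CPM. The gap between the 2 log2 ratios was 1.52. With 1 library per group the difference was not tested. Median UMIs per cell were 39897 in knockout and 52250 in control endothelial-gated cells and 28600 and 38769 in mesenchymal-gated cells; the part of depth in the gap was not tested.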

How the results depend on the processing

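Over all cells, 129 of 130 values of the 10 genes kept the sign and 127 the side of 1.5-fold under 13 alternatives; the sign exception was Ddit4, at 0.12 with the length and GC correction against -0.14. Hspa5 ranged between 0.87 with equal weight per gated state and 1.05 with a 5% mitochondrial limit, and Phgdh between -0.91 with equal weight per cell and -0.64 with the length and GC correction. The count of genes higher was 2 with that correction (Atf4 at 0.60), the count lower was 2 without cardiomyocyte-gated cells (Asns at -0.59), and the median of the 8 measured genes was 0.06 with the correction against -0.19. Among all genes, 868 of 10286 were higher with the correction, and 531 of 10212 were lower without cardiomyocyte-gated cells. The median of the ER list was 0.36 with a 50 CPM filter. Its number of higher genes, of 21, was 8 with TMM scaling, 4 with the length and GC correction and 3 with equal weight per gated state. Among all genes the numbers were 1382 of 10290, 868 of 10286 and 1137 of 10304 in the same order, so the last count is near the background. Equal weight per gated state was an alternative chosen after seeing the data, as was leaving out shared barcodes. Within gates, 407 of 420 values kept the sign and 395 the side of 1.5-fold. Of the 13 values that turned, 4 lay past a stricter progenitor cut with 63 knockout cells, Ddit3 at -1.07, Chac1 at -0.93, Sesn2 at -0.11 and Trib3 at -0.01, and Chac1, Trib3 and Sesn2 passed 1.5-fold upward there with a minimum of 30000 UMIs, at 0.86, 0.81 and 0.59. Under the 5% mitochondrial limit, Sesn2 in endoderm-gated cells was at -0.00547 and Chac1 at 0.77, with 25 knockout cells, and Sesn2 in epicardial-gated cells at 0.10. The other 6 that turned, of Trib3, Ddit4 and Chac1, lay between -0.02 and 0.06; the cause was not tested. No paired analysis was possible because the series holds a single library of each genotype. Depth limits Trib3, Chac1 and Ddit3 within small gates, where counts are few, and no alternative stands for a replicate.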
